A study of Mus musculus with 10 samples.

Results

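Messenger RNA of the AMPA and kainate classes of glutamate receptor was compared between brains of 8-week-old and 1-week-old mice of C57BL/6, a widely used inbred strain. The members were 9 genes: the AMPA receptor subunits Gria1, Gria2, Gria3 and Gria4, the AMPA receptor auxiliary subunit Cnih2, the kainate receptor subunits Grik1, Grik2 and Grik5, and the delta receptor subunit Grid1. They were chosen by the gene symbol in the array's annotation, which gave 11 probe sets of the 22626 that were not array controls. A probe set is a group of short oligonucleotides that read a single transcript region. Total RNA of each brain was hybridised to 1 MOE430A array, which gave 10 arrays: at 8 weeks, 2 with a female and 2 with a male label, and at 1 week, 3 with each label. No treatment or genetic change is named in the labels, and the brain region is not given beyond brain. Brains are numbered within a group without a statement that they came from separate animals, so p-values here measure the spread between these samples.

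AMPA receptors are tetrameric cation channels that carry most of the fast excitatory current at brain synapses. Which of the GRIA subunits they hold sets how they conduct: receptors that contain edited GRIA2 pass little calcium, whereas those without it pass calcium readily. Kainate receptors, built from GRIK subunits, act both before and after the synapse and adjust transmitter release and excitability, and GRIK5 reaches the surface only together with subunits such as GRIK1 or GRIK2. CNIH2, a cornichon protein, helps AMPA receptors leave the endoplasmic reticulum and slows their closing. GRID1 has the receptor fold but serves mainly as a synaptic adhesion partner of cerebellin and neurexin proteins.

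At 8 weeks the transcripts of Gria1, Gria3 and Gria4 were higher than at 1 week, that of Gria2 was not called, and those of Cnih2, Grik5 and Grik2 were lower. Levels are given as quantile-normalized intensity, a linear scale on which all arrays share 1 distribution, and each change ± SE is the 8-week minus the 1-week mean of log2(level + 24), 24 being the pseudocount. Of the 11 probe sets, 10 passed a filter on mean brightness over all arrays and were tested with limma among 13576 probe sets. At an adjusted p (Benjamini-Hochberg) under 0.05, 7 of the 10 were called, against 46.0% of all tested probe sets. The count was 4 of 10 higher, against 22.0% of all, and 3 of 10 lower, against 24.0% of all. The median change was -0.11 over these 10 and -0.02 over all 13576. All arrays of 8 weeks lay above all arrays of 1 week in 3 of the 10, against 17.1% of all, and below them in 1 of the 10, against 18.3% of all.

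**Figure D1:**
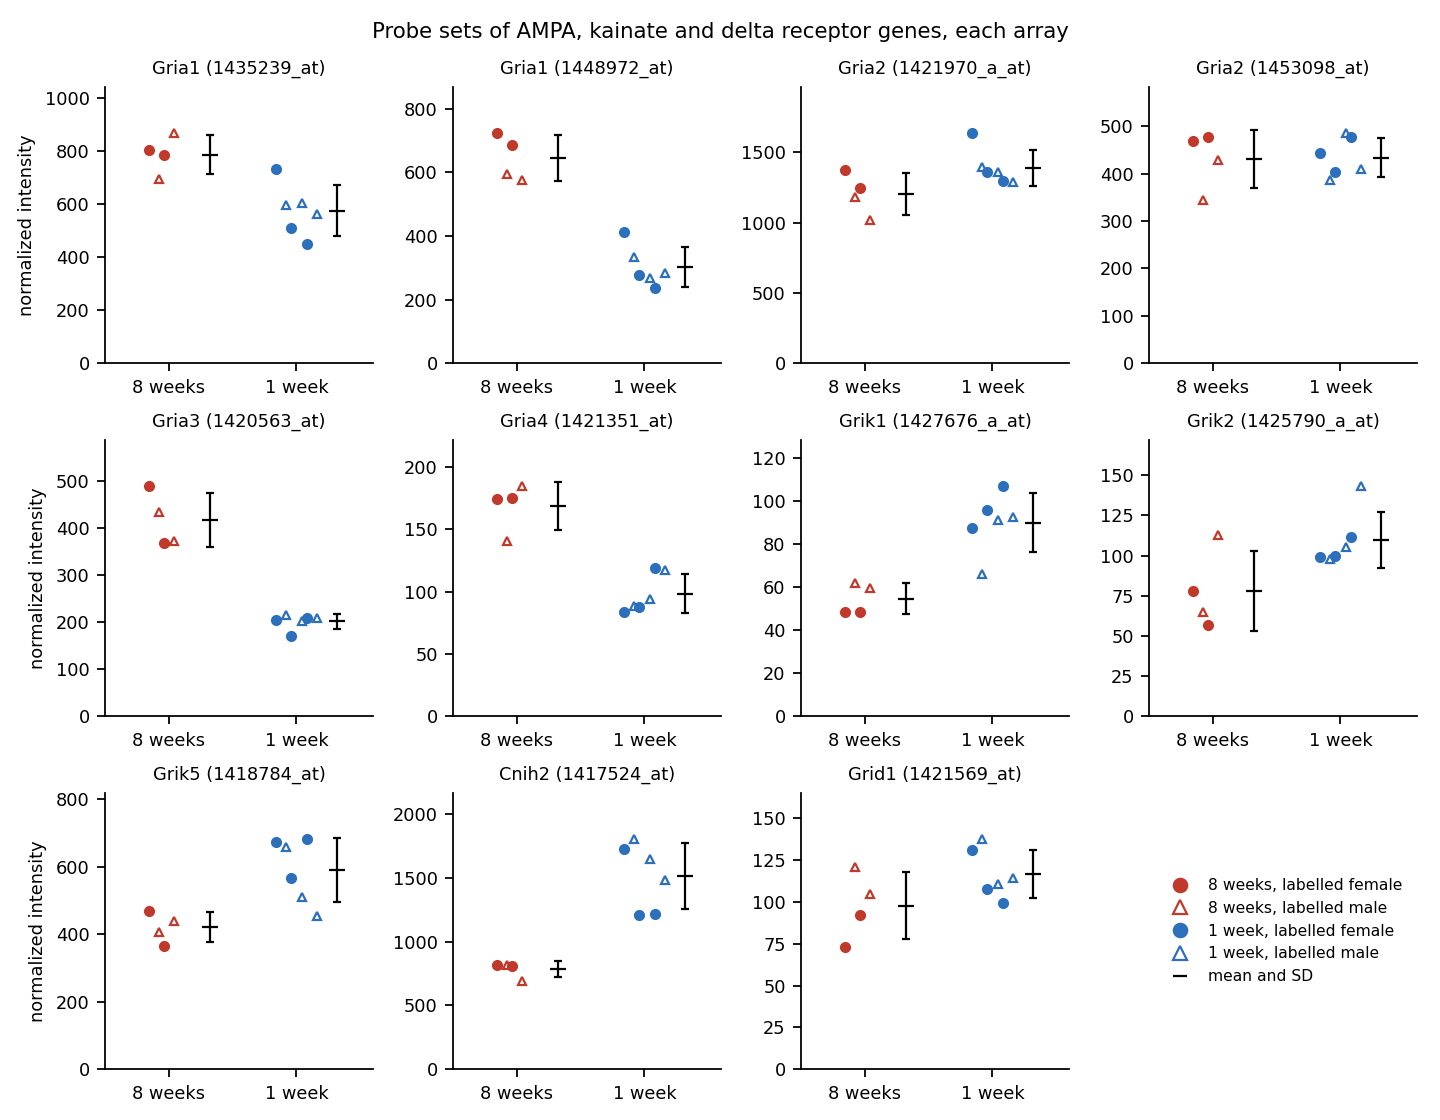
Normalized intensity (y axis, from 0) of each of the 11 probe sets in each array, 8 weeks at left and 1 week at right, with filled circles for arrays labelled female, open triangles for arrays labelled male, and the mean with SD in black. Gria3, Gria4 and Gria1 probe set 1448972_at have all 8-week arrays above all 1-week arrays, and Cnih2 has them all below, at 695 to 818 against 1210 to 1804.

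The arrays are described first as a whole. Deposited intensities were brighter at 8 weeks, with trimmed means of 290.1 ± 27.9 (SD, n = 4) at 8 weeks and 200.3 ± 35.5 (SD, n = 6) at 1 week (exact permutation p = 0.00476, adjusted p = 0.0143 over 3 array measures). A measure of RNA integrity, the actin 3' to 5' signal ratio, averaged 1.11 ± 0.0402 at 8 weeks and 1.03 ± 0.0506 at 1 week, with an exact permutation p of 0.0381 (adjusted 0.0571). The same ratio for Gapdh gave an exact permutation p of 0.476. Log2 values correlated at 0.973 to 0.981 within groups and at 0.933 to 0.951 between ages. The X-linked RNA Xist and the Y-linked gene Eif2s3y went against the sex label in 4 of the 6 arrays at 1 week. Replicates 1 and 2 labelled female read 163 and 164 for Xist, and replicates 2 and 3 labelled male read 1664 and 1422. Replicate 3 labelled female carried both, with Xist at 866 and Eif2s3y at 53.9. A 1-week label is therefore not read below as the sex of the brain. The model still holds a mean for each label at each age, and comparisons by label below use the labels as given. A fit of age alone called the same numbers of member probe sets, 4 higher and 3 lower. Neuronal markers checked the tissue, with summed intensities of 8 genes from 15918 to 16968 at 8 weeks and from 15722 to 17335 at 1 week. Of these 8, 4 were called higher and 2 lower, among them Eno2 at 1.15 and Tubb3 at -2.28. Over all tested probe sets the shares were 22.0% and 24.0%.

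Gria3 encodes an X-linked AMPA receptor subunit. Its transcript read 489, 368, 435 and 373 at 8 weeks, and ran from 169.9 to 215 with a median of 206 at 1 week. Even the dimmest 8-week array was well above the brightest 1-week array. The means were 416 ± 57.03 (SD, n = 4) at 8 weeks and 201.3 ± 16.1 (SD, n = 6) at 1 week, a 1.95-fold rise (log2 0.96 ± 0.10, adjusted p = 3.52e-05), and 96.3% of all tested probe sets had a smaller log2 change. The gene lies on chromosome X at 41400819 to 41678601 (GRCm38.p6).

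Gria4 encodes a subunit with fast kinetics that is known in cerebellar Bergmann glia and granule neurons and in interneurons. Its single probe set read 175, 176, 141 and 185 at 8 weeks, against 83.4 to 119 with a median of 91.3 at 1 week. The ages did not overlap. The change was 0.66 ± 0.11 (1.58-fold, adjusted p = 9.68e-04). This gene lies on chromosome 9 at 4417893 to 4796234.

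Gria1 encodes the subunit that is prominent in hippocampus and is moved into synapses during potentiation. Its 2 probe sets both rose, by unequal amounts. Probe set 1448972_at read 724, 686, 595 and 576 at 8 weeks, against 238 to 412 with a median of 282 at 1 week, a change of 1.05 ± 0.13 (2.07-fold, adjusted p = 1.43e-04) without overlap. The brighter probe set, 1435239_at, read 802, 782, 692 and 867 at 8 weeks, against 447 to 730 with a median of 579 at 1 week. Here replicate 1 labelled female at 1 week, the 730, stood above the lowest 8-week array, and the change was 0.45 ± 0.13 (1.36-fold, adjusted p = 0.0162). Within arrays, 1448972_at minus 1435239_at averaged -0.28 ± 0.20 (SD, n = 4) at 8 weeks and -0.88 ± 0.12 (SD, n = 6) at 1 week, and the ages did not overlap in that difference. Both read the gene at 57011571 to 57330244 on chromosome 11, and the part of the transcript each reads was not analysed here. The call of 1435239_at was lost without replicate 2 labelled male at 8 weeks (0.37 ± 0.14, adjusted p = 0.0714) and within each sex label (adjusted p = 0.0575 for female and 0.130 for male).

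Gria2 encodes the subunit whose edited form limits calcium entry. Its brighter probe set, 1421970_a_at, read 1376, 1245, 1178 and 1017 at 8 weeks, against 1287 to 1637 with a median of 1363 at 1 week. Replicate 1 labelled female at 8 weeks was inside the range of 1 week, and the other 8-week arrays were below it. The change did not pass (-0.21 ± 0.09, 95% interval -0.41 to -0.01, adjusted p = 0.0831). Probe set 1453098_at read 470, 479, 344 and 429 at 8 weeks and 386 to 486 at 1 week, a change of -0.02 ± 0.10 (95% interval -0.23 to 0.19, adjusted p = 0.892). Without normalization between arrays, where the median of all probe sets shifted to 0.47, both Gria2 probe sets were called higher but the brighter one stayed below that median, at 0.34 (adjusted p = 0.0332) and 0.50 (adjusted p = 0.0100). The gene lies on chromosome 3 at 80681450 to 80804227.

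Cnih2 showed the steepest fall among the tested member probe sets. Its transcript read 815, 811, 818 and 695 at 8 weeks, against 1210 to 1804 with a median of 1568 at 1 week. The highest 8-week array was below the lowest 1-week array. Means were 785 ± 59.9 (SD, n = 4) at 8 weeks and 1515 ± 258 (SD, n = 6) at 1 week, a change of -0.91 ± 0.12 (adjusted p = 1.42e-04), and only 3.73% of all tested probe sets had a lower log2 change. It was also called lower without normalization between arrays, at -0.36 (adjusted p = 0.0257), against a median of 0.47 over all probe sets. The gene lies on chromosome 19 at 5092868 to 5098521.

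RefSeq (GRCm38.p6) supplied promoter windows for 5 of the 9 members: Gria2, Gria4, Grik2, Grik5 and Cnih2. Those of Gria4, which rose, Gria2, which was not called, and Cnih2, which fell, are shown over the 250 bases before the start that the RefSeq promoter table uses, so that sequences of members with different age changes can be read side by side. All are on the minus strand, at chr9:4796235-4796484, chr3:80802836-80803085 and chr19:5098522-5098771. The windows of Gria4 and Cnih2 abut the gene's annotated span, and that of Gria2 lies inside it. Capitals mark the GC box, GGGCGG or its reverse complement, the core that SP-family factors recognise.
Gria4: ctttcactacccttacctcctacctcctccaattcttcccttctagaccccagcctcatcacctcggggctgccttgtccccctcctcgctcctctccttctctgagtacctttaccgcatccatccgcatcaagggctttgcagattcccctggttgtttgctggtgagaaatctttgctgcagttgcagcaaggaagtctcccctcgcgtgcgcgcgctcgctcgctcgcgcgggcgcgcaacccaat
Gria2: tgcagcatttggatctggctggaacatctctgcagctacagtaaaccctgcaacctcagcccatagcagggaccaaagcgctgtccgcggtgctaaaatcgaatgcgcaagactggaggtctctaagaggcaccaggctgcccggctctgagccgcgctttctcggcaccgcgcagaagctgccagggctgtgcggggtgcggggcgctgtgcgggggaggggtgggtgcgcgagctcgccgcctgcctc
Cnih2: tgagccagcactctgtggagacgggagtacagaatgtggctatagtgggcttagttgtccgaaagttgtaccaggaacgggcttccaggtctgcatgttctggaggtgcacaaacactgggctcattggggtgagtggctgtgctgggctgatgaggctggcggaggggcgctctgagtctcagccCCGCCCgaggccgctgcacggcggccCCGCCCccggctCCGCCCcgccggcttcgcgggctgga
The Cnih2 window held 3 GC boxes and those of Gria4 and Gria2 held 0. By comparison, 32.7% of 32851 RefSeq windows of the same length held at least 1, and among the other members called lower the Grik5 window held 2 and the Grik2 window held 0. A TATA box, TATAAA on either strand, was in 0 of these 5 windows and in 12.4% of all. The dinucleotide CG occurred 16 times in the Gria4 window, 19 times in that of Gria2 and 17 times in that of Cnih2, against a median of 6 over all windows. These matches describe letters only.

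**Figure D2:**
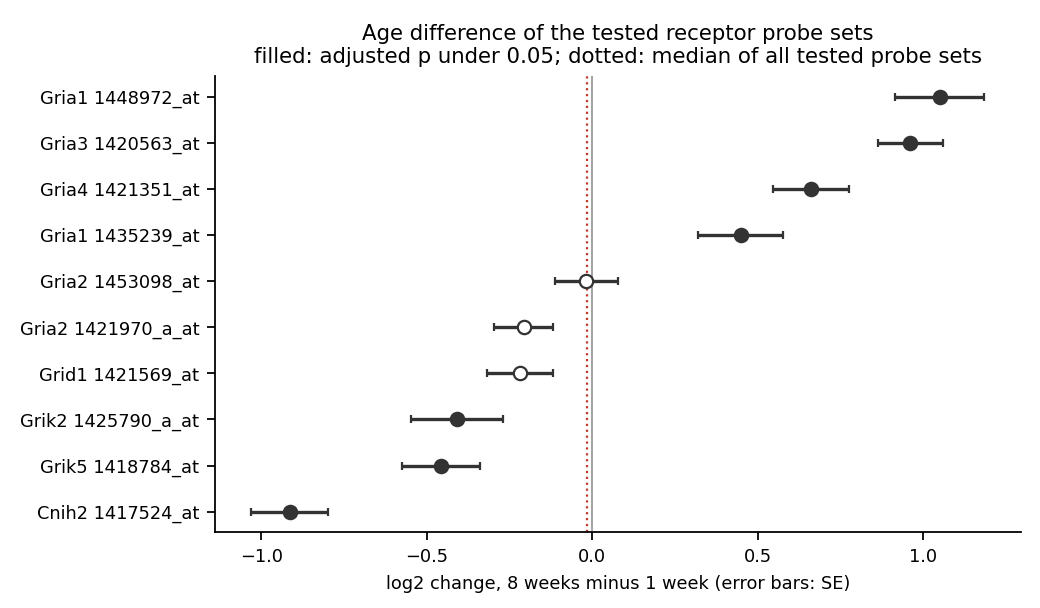
Log2 change at 8 weeks minus 1 week (x axis) of the 10 tested member probe sets, with SE bars, filled where the adjusted p was under 0.05, and a dotted line at the median of all tested probe sets, -0.02. The AMPA subunits other than Gria2 lie to the right, from 0.45 to 1.05, and Cnih2 lies farthest to the left, at -0.91.

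Whether subunits changed unequally was tested within arrays, where most of the scale of an array cancels, although the pseudocount and the normalization do not cancel fully. For each of 8 pairs the log2 value of 1 gene was subtracted from that of another, and the difference was compared between ages with a two-sided exact permutation test over 210 assignments, whose smallest p is 0.00476. Gria2 minus Gria3 averaged 1.48 ± 0.14 (SD, n = 4) at 8 weeks and 2.65 ± 0.17 (SD, n = 6) at 1 week, a shift of -1.17 (exact permutation p = 0.00476, adjusted p = 0.00762 over 8 pairs). Gria2 minus Gria4 shifted by -0.87 and Gria2 minus Gria1 by -0.66, both with the same exact permutation p. The first of these was -0.77 without normalization and -0.72 with a pseudocount of 64, and was called in either. Relative to each of the other AMPA subunits, Gria2 by its brighter probe set was therefore lower at 8 weeks in 4 of 4 arrays than in any of the 6 at 1 week. With its other probe set, 1453098_at, the shift against Gria1 was -0.47 (exact permutation adjusted p = 0.0305), and there the ages overlapped. Against Gria3 and Gria4 that probe set shifted by -0.98 and -0.68 (exact permutation adjusted p = 0.00952 for either). These shifts say nothing of receptor protein or of editing, which were not measured.

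Cnih2 fell relative to the subunits that it accompanies. Cnih2 minus Gria1 averaged 0.00 ± 0.23 (SD, n = 4) at 8 weeks and 1.36 ± 0.13 (SD, n = 6) at 1 week, a shift of -1.36, and Cnih2 minus Gria2 shifted by -0.71 (exact permutation p = 0.00476 and adjusted p = 0.00762 for either). Gria1 minus Gria4 shifted by -0.21 with overlapping ages, and did not pass (exact permutation p = 0.319, adjusted p = 0.425). With the other Gria1 probe set that shift turned to 0.39 (exact permutation adjusted p = 0.152).

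**Figure D3:**
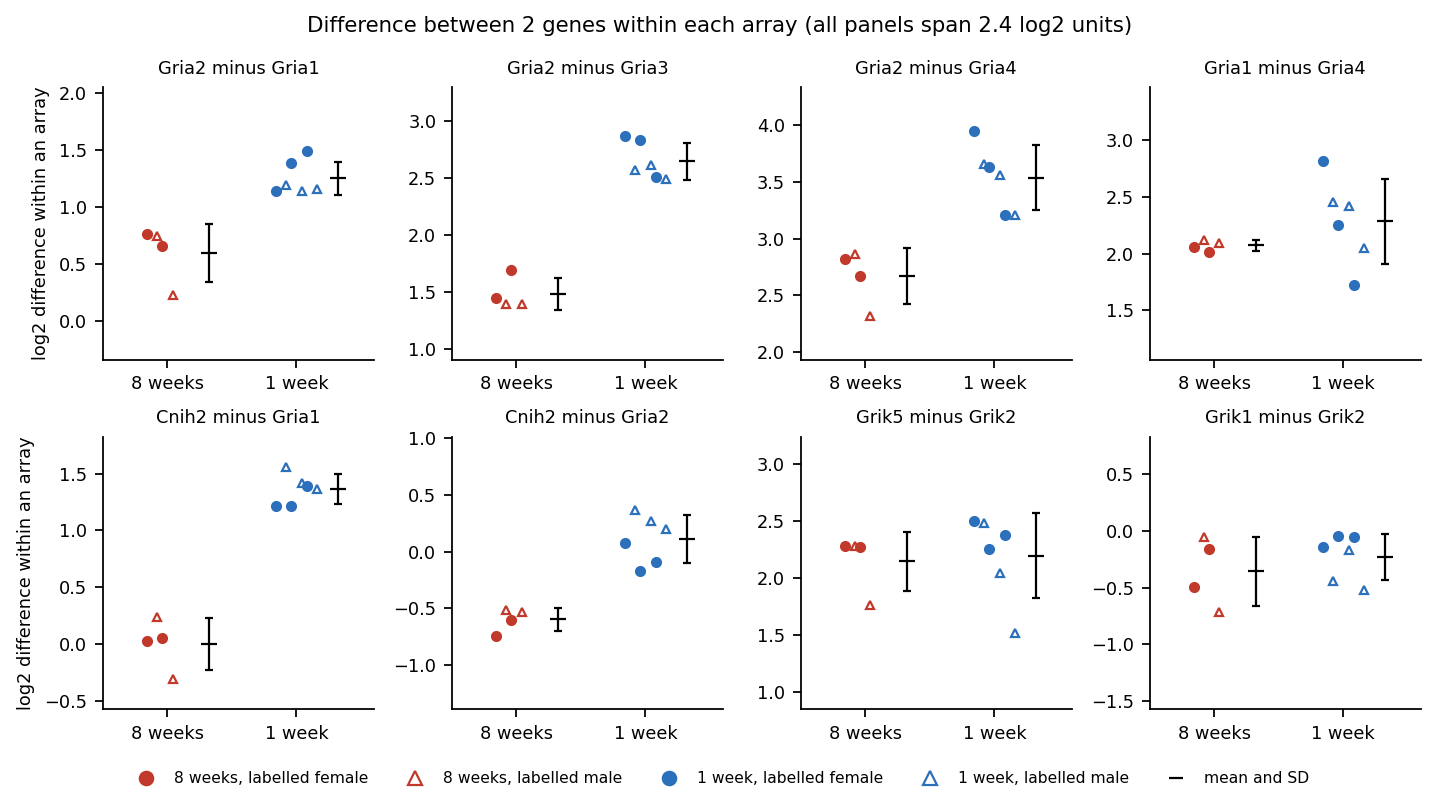
Difference in log2 value between 2 genes within each array (y axis, every panel spanning the same number of log2 units), 8 weeks at left and 1 week at right, filled circles for arrays labelled female, open triangles for labelled male, mean and SD in black. The ages are apart for Gria2 against Gria1, Gria3 and Gria4 and for Cnih2 against Gria1 and Gria2, and they overlap in the other 3 panels.

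Transcripts of the kainate receptor subunits were lower at 8 weeks where they were called. Grik5, which encodes a high-affinity subunit that needs a partner, read 470, 366, 408 and 440.0 at 8 weeks, against 455 to 683 with a median of 613 at 1 week. A single 8-week array, replicate 1 labelled female, reached into the 1-week range. The change was -0.46 ± 0.12 (adjusted p = 0.00964), but without normalization between arrays it turned to 0.07 (adjusted p = 0.641), below the median of 0.47 over all probe sets. Its call was also lost within arrays labelled male (-0.32 ± 0.17, limma adjusted p = 0.169), though not within those labelled female (-0.60 ± 0.17, limma adjusted p = 0.0222). The gene lies on chromosome 7 at 25009849 to 25075694.

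Grik2 encodes a principal kainate receptor subunit of hippocampal mossy fibre synapses. It read 77.7, 56.6, 65.1 and 113 at 8 weeks, against 98.1 to 143 with a median of 103 at 1 week. Replicate 2 labelled male at 8 weeks, the 113, lay inside the 1-week range while the other arrays of 8 weeks were below it. The change was -0.41 ± 0.14 (adjusted p = 0.0355). The call was lost in 12 of 24 alternatives, among them the table without a brightness filter (adjusted p = 0.0634) and that without normalization between arrays (-0.003, limma adjusted p = 0.988). The gene lies on chromosome 10 at 49093680 to 49790161. Grik5 minus Grik2 shifted by -0.05 between ages (exact permutation p = 0.843).

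Grik1, the subunit known in interneurons and in sensory neurons, was just under the brightness filter, at the 39.9th percentile of mean level where the filter began at the 40th. It read 48.3, 48.3, 61.7 and 59.4 at 8 weeks, against 65.8 to 107 with a median of 91.8 at 1 week, and the ages did not overlap. In the alternative without a filter its change was -0.53 ± 0.09 (limma adjusted p = 0.00269). Without normalization the deposited intensities overlapped, at 61.6 to 69.2 at 8 weeks and 41.4 to 108 at 1 week. Grik1 minus Grik2 did not pass (exact permutation p = 0.471). Grik1 lies on chromosome 16 at 87895901 to 88290863.

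Grid1, on chromosome 14 at 34820003 to 35583387, read 73.2, 92.3, 121 and 105 at 8 weeks, against 99.1 to 137 with a median of 112 at 1 week. The arrays of the ages were interleaved, and the change of -0.22 ± 0.10 did not pass (95% interval -0.44 to 0.00, adjusted p = 0.101). Grik3 read 6.26 ± 1.41 (SD, n = 4) at 8 weeks and 5.53 ± 1.49 (SD, n = 6) at 1 week, far below the dimmest tested probe set at 73.9.

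Genes that work with these receptors were taken from 7 lists of 63 genes, of which 40 had a probe set and 37 passed the brightness filter. Of the 37, 17 rose and 8 fell at an adjusted p under 0.05, and 12 did not pass, with a median change of 0.26. Over all tested probe sets 22.0% were called higher and 24.0% lower, so the share of these genes called lower was close to that of all. Among AMPA receptor auxiliary subunits and assembly factors 4 of 9 rose and 1 fell. Cacng2 and Cacng3, which encode the transmembrane regulatory proteins stargazin and gamma-3, changed by 0.87 ± 0.17 (limma adjusted p = 0.00224) and 0.63 ± 0.14. Porcn, an acyltransferase gene whose product binds AMPA receptors, changed by 0.78 ± 0.12 and the lipid phosphatase gene Sacm1l by 0.60 ± 0.09. Cacng4, a further regulatory protein of the same family, was 150.01 ± 32.6 (SD, n = 4) at 8 weeks and 453 ± 234 (SD, n = 6) at 1 week, a change of -1.36 ± 0.25 (limma adjusted p = 0.0016). Cnih3, a second cornichon gene, did not pass, with 230.5 ± 45.6 (SD, n = 4) at 8 weeks and 246 ± 46.0 (SD, n = 6) at 1 week (-0.08 ± 0.11, limma adjusted p = 0.567). Neto1, an auxiliary subunit of kainate receptors and the only one tested, fell by its brighter probe set (-0.44 ± 0.13, limma adjusted p = 0.0203), while its dimmer one did not pass (-0.35 ± 0.18, limma adjusted p = 0.133).

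Scaffolds and trafficking proteins went both ways, 6 of 16 rising and 4 falling, the falling share again close to the 24.0% of all tested probe sets. Of all tested probe sets 22.0% were called higher. The scaffold genes Dlg4 (PSD-95) and Dlg1 (SAP97) changed by 0.99 ± 0.11 and 0.94 ± 0.10, Nsf, the fusion ATPase that binds GRIA2, by 0.71 ± 0.08 and Gripap1 by 0.50 ± 0.08. Lin7c, a scaffold gene, and Rab11a, a GTPase of recycling endosomes, fell (-0.72 ± 0.10 and -0.66 ± 0.07), though 1 of the 3 other Lin7c probe sets did not pass (0.08 ± 0.13). Probe sets of Epb41l1, a gene named after its values were seen, disagreed: the brightest changed by -0.26 ± 0.12 and did not pass, while the others were called higher at 0.47 ± 0.08 and 0.75 ± 0.08. Secreted and adhesive organisers rose in 5 of 8 and fell in 1, beside the same 22.0% and 24.0% of all tested probe sets. Cbln3 changed by 2.75 ± 0.37, the neuronal pentraxin gene Nptx1, whose product clusters AMPA receptors, by 1.499 ± 0.17, Cbln1, a partner of delta receptors, by 1.13 ± 0.36 and Olfm3 by 0.99 ± 0.16. The 2 dimmer Cbln1 probe sets did not pass (limma adjusted p = 0.0742 and 0.0598). Olfm1, also named after its values were seen, counted as not passing by its brightest probe set (-0.007 ± 0.08). Its next brightest was called higher (0.52 ± 0.07, limma adjusted p = 2.43e-04), and its dimmest did not pass (-0.28 ± 0.15). Lrrtm1, an adhesion gene, fell (-0.55 ± 0.16), and its dimmer probe set did not pass (-0.34 ± 0.13, limma adjusted p = 0.0544). Adarb1, the enzyme that edits the Gria2 transcript, was 262 ± 38.5 (SD, n = 4) at 8 weeks and 127 ± 19.3 (SD, n = 6) at 1 week (0.92 ± 0.10, limma adjusted p = 5.12e-05). Adar changed by 0.26 ± 0.09. Both of the 2 editing genes tested were called, where 46.0% of all tested probe sets were called in either direction. Slc17a6, a vesicular glutamate transporter gene, fell (-0.86 ± 0.28, limma adjusted p = 0.0297), and its dimmer probe set did not pass (-0.29 ± 0.25, limma adjusted p = 0.370). Without normalization between arrays 28 of the 37 were called higher and 1 lower.

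**Figure D4:**
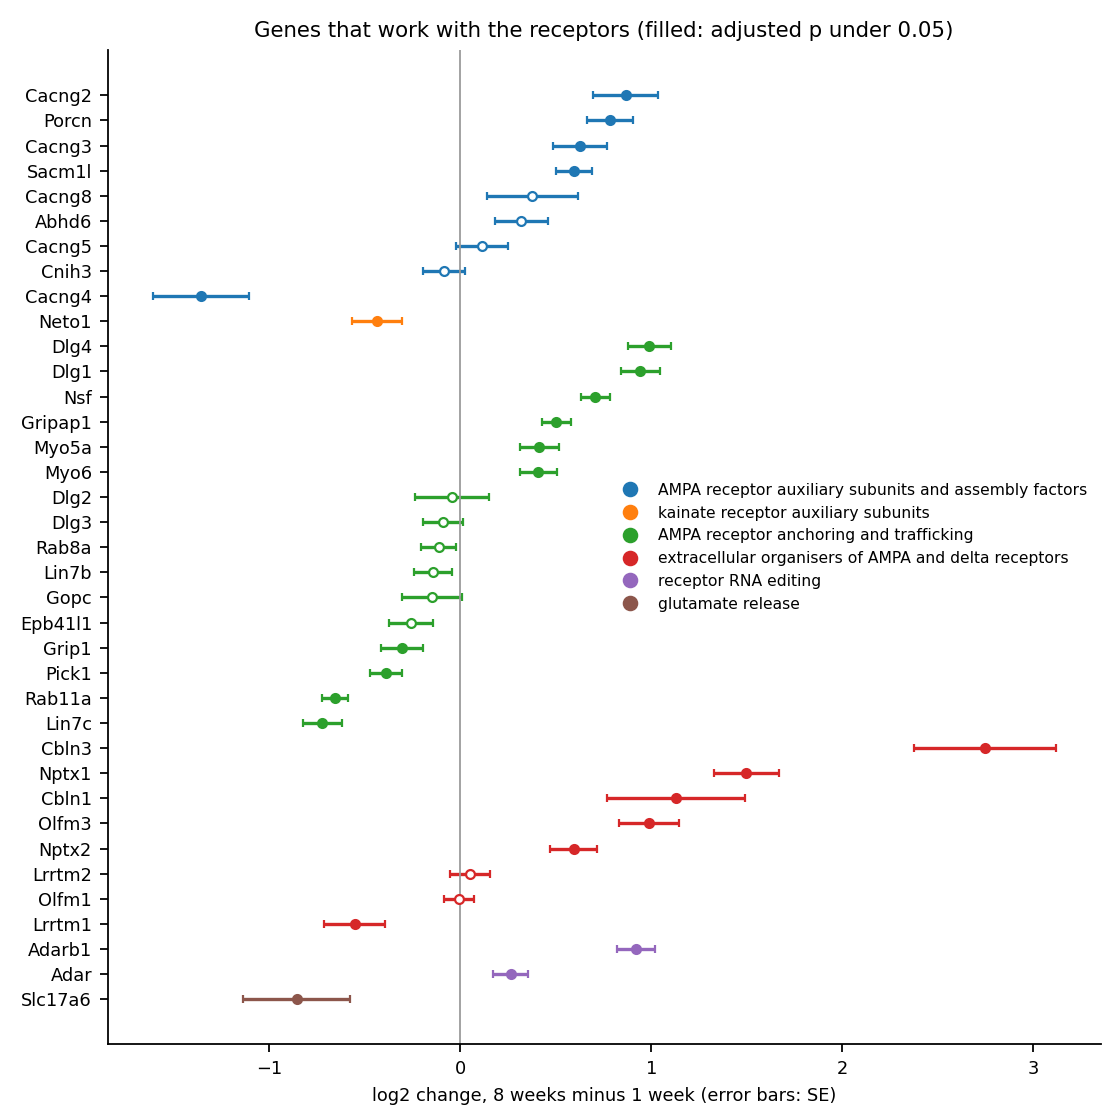
Log2 change at 8 weeks minus 1 week (x axis) of the 37 tested genes from the related lists, coloured by list, with SE bars and filled points for an adjusted p under 0.05. Cbln3 lies farthest to the right at 2.75 and Cacng4 farthest to the left at -1.36.

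Levels of Cnih2, Gria4 and Gria1 were set beside those of cerebellar granule neuron markers, array by array. The 6 markers (Gabra6, Zic1, Zic2, Cbln3, Neurod1 and Pax6) all passed the filter, 3 were called higher and 0 lower, and none was at 0. Of all tested probe sets 22.0% were called higher and 24.0% lower. Cbln3 is also among the organisers above. Their summed intensity ran from 1852 to 7241 at 8 weeks and from 1017 to 3861 at 1 week. At 8 weeks Cnih2 was lowest, 695, in the array with the highest sum, replicate 2 labelled male, and highest, 818, in that with the lowest sum, replicate 1 labelled male. The other 8-week arrays read 815 and 811 at sums of 5168 and 4762, close to the 818. The lower level at 8 weeks was thus that of a single array, which Dixon's test below also marked. At 1 week Cnih2 was highest, 1729 and 1804, in the arrays with the lowest sums, replicate 1 of either label at 1248 and 1017, and lowest, 1210 and 1213, in those with the highest, replicates 2 and 3 labelled female at 3070 and 3861. Between these the order was not kept, with Cnih2 at 1485 and 1651 at sums of 2352 and 2540.

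Gria4 read 185 and 141 in the 8-week arrays of highest and lowest sum. At 1 week it was highest, 119, at the highest sum, but it read 87.8 at the next sum of 3070, 118 at 2352 and 88.8 at the lowest, so the order was not kept. Gria1 probe set 1448972_at had no such order at 8 weeks, with 576 and 595 at the highest and lowest sums and higher levels between. At 1 week it read 238 at the highest sum, and 412 and 335 at sums of 1248 and 1017. The brighter Gria1 probe set ran opposite ways, with 867 and 692 at the highest and lowest sums of 8 weeks, and 447 and 596 at those of 1 week. The 8-week array with a sum of 1852, below 4 of the 6 sums at 1 week, read Cnih2 below and Gria4 above all arrays of 1 week. The markers themselves changed unequally with age. Gabra6 ran from 310 to 1993 at 8 weeks and from 12.4 to 106 at 1 week, while Zic1, Neurod1 and Pax6 overlapped between ages. A sum therefore cannot be compared between ages as a measure of granule neuron content. The part of granule neuron content in the age changes was not tested. Without replicate 1 of either label at 1 week, an alternative added after seeing the data, Cnih2 changed by -0.79 (adjusted p = 2.58e-04) and Gria4 by 0.60 (adjusted p = 0.00568), and the same numbers of member probe sets were called, 4 higher and 3 lower. In RNA of whole brain, fewer cells of a type and less RNA per cell cannot be told apart.

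**Figure D5:**
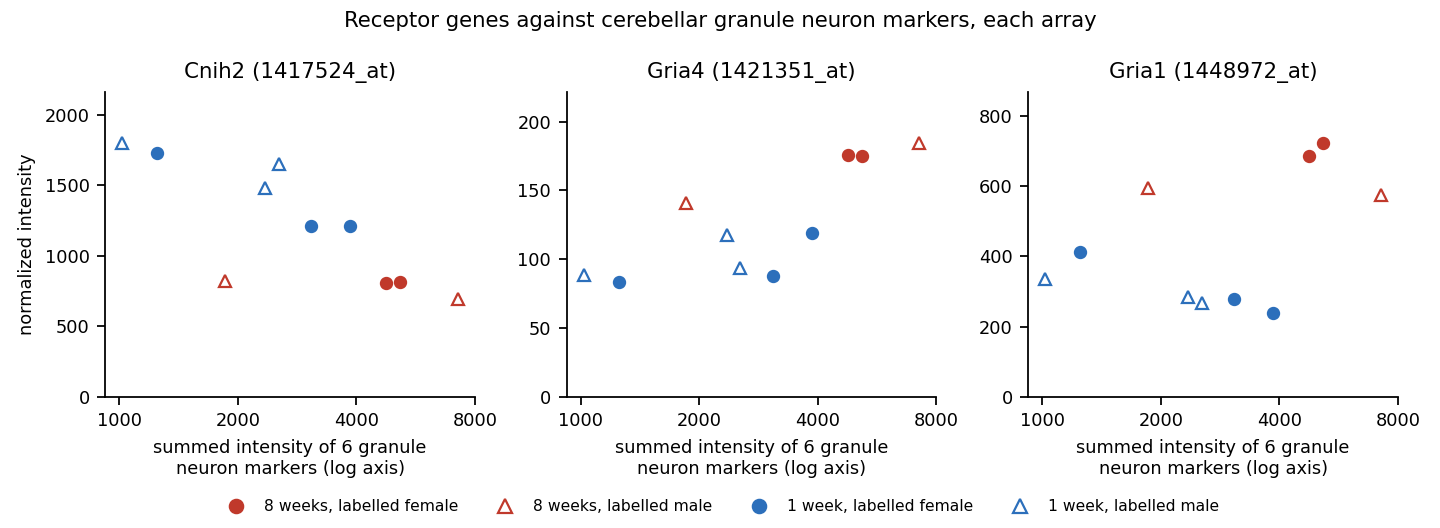
Normalized intensity of Cnih2, Gria4 and Gria1 (y axes, from 0) against the summed normalized intensity of 6 cerebellar granule neuron markers (x axis, log scale), with 1 point per array, filled circles for arrays labelled female and open triangles for arrays labelled male. Within each age Cnih2 and the plotted Gria1 probe set, 1448972_at, are lower at the highest marker sum than at the lowest, and Gria4 is higher. In no panel do the arrays between them keep the full order.

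Other cell type markers also differed between ages. Their counts below stand beside 22.0% of all tested probe sets called higher and 24.0% called lower. The summed intensity of 6 interneuron markers ran from 5179 to 6397 at 8 weeks and from 2865 to 3274 at 1 week, with 5 of 6 called higher and 0 lower. That of 4 Purkinje neuron markers ran from 6214 to 14444 at 8 weeks and from 3099 to 6160 at 1 week, with 3 of 4 higher. Markers of oligodendrocyte precursors, cells that carry AMPA receptors, summed to 1586 to 2072 at 8 weeks and 1997 to 2604 at 1 week, with 3 of 4 lower. Forebrain excitatory neuron markers overlapped, at 950 to 1225 and 497 to 1351, with 0 of 4 higher and 2 lower. Markers of astrocytes summed to 3763 to 3951 at 8 weeks and 2786 to 4658 at 1 week, with 2 of 6 higher and 1 lower. Oligodendrocyte markers summed to 3766 to 5412 at 8 weeks and 187 to 1372 at 1 week (3 of 3 tested higher), and microglial markers to 2339 to 3160 and 1690.1 to 2033 (4 of 4 tested higher). Pituitary hormone genes summed to 965 to 13371 at 8 weeks and 187 to 2502 at 1 week, with 2 of 3 tested higher. None of these lists had a member at 0 in its mean, and their part in the receptor changes was not tested.

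The sex labels gave no call for any member. At 8 weeks, where sex transcripts followed the labels, male minus female gave 0 calls among 13576 probe sets (0%), with 345 at an unadjusted p under 0.05 and 1 of the 10 member probe sets among them. Member changes ran from -0.29 to 0.36. Even Xist, at 1676 and 1405 in the 8-week arrays labelled female and 131 and 134 in those labelled male, was not called. The spread was estimated over all groups together, with the 1-week arrays whose labels went against the sex transcripts among them. These 0 calls, and those of the interaction below, therefore cannot show that the sexes were alike. At 1 week, where most labels went against the sex transcripts, the same contrast gave 0 calls, 1150 at an unadjusted p under 0.05 and 0 of 10 members among them. The age by label interaction also gave 0 calls, 759 at an unadjusted p under 0.05 and 0 of 10 members. Within the arrays labelled female Cnih2 changed by -0.73 ± 0.16 and within those labelled male by -1.10 ± 0.16, and the interaction did not pass (-0.37 ± 0.23, limma adjusted p = 0.860). Gria3 changed by 1.05 ± 0.14 and 0.87 ± 0.14 in the same comparison (interaction -0.17 ± 0.20, limma adjusted p = 0.904).

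Genes whose profile over the 10 arrays was most like that of a member were found by the root mean square difference of log2 values, each gene centred on its mean, among 8147 genes. For Cnih2 they were Ralgps2, Efnb3 and Hsbp1, at differences of 0.11, 0.12 and 0.13. For Gria3, the member with the largest rise by its brightest probe set, they were Prnp, Map2k1 and Ccdc28a, at 0.11, 0.11 and 0.12.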

How the data were processed

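The authors deposited 1 linear intensity per probe set and array, and the software that made it is not given in the sources used here. Of 22690 rows, 64 array controls were left out. Groups came from the labels. Arrays were quantile-normalized, a pseudocount of 24 (the 20th percentile of deposited values) was added, log2 was taken, and the brightness filter kept the 13576 of 22626 probe sets with a mean at or above the 40th percentile. The model, from limma 3.58.1 under R 4.3.3, had a mean for each combination of age and sex label, and p-values were adjusted by Benjamini-Hochberg over all tested probe sets. Single values per array were compared by exact permutation tests. The number of arrays limits the precision. A gene is represented by its brightest single-symbol probe set. The annotation gave 1 symbol for 20380 probe sets, several for 691 and none for 1555, and 20351 of the first were matched to RefSeq by gene ID.

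The members, the lists and the tests were chosen with earlier results of these data known. All 9 members were named, from each related list up to 4 genes called in the more frequent direction and up to 2 in the other, and the 3 most alike genes for Cnih2 and for the largest rise. Cnih3, Grik3, Epb41l1, Olfm1 and the sex and cell type markers were named besides. In simulated data of 22626 probe sets for the age comparison, with 200 changed, the fit called 45.5%, 83.5% and 84.5% of probe sets changed by 0.5, 1 and 2 (log2), where the filter kept 97.5%, 92% and 84.5% of the changed ones. The simulated noise was independent between probe sets, and far fewer probe sets changed than the 46.0% of tested ones called in the data. These recovered shares therefore do not give the power of the real comparison. Alternatives were other pseudocounts, scalings, filters and models, arrays left out and a replicate block.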

Additional observations from a re-analysis of the deposited data

Results flagged for a closer look

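Dixon's test for a single distant array was applied to the 11 member probe sets in each age group, 22 sets of arrays, and marked 4, where chance marks about 1 in 20. At 1 week, Gria2 probe set 1421970_a_at read 1637 in replicate 1 labelled female, above the other arrays, Gria3 read 169.9 in replicate 2 labelled female, below them, and Grik2 read 143 in replicate 3 labelled male, above them. At 8 weeks, Cnih2 read 695 in replicate 2 labelled male, below the other 3. Without that last array the Cnih2 change was still called, and the leave-one-out changes of Cnih2 ran from -0.97 to -0.83.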

How the results depend on the processing

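Cnih2, Gria3, Gria4 and Gria1 probe set 1448972_at kept their direction and call in every alternative in which each was tested at an adjusted p under 0.05. Gria4 was too dim for the filter at the 60th percentile, and of these 4 only the Gria1 probe set passed a 2-fold minimum. The 5 pair shifts called in the main comparison kept theirs in all of their alternatives. Without normalization between arrays, 8673 probe sets were higher and 629 lower, with 6 and 1 among the members and 28 and 1 among the related genes. In that setting the Gria2 probe sets turned to 0.34 and 0.50, Grik5 to 0.072, Grid1 to 0.22 and Grik5 minus Grik2 to 0.075, and 1 probe set was called for sex label at 8 weeks. This setting leaves the brightness of each array in the values. Gria2 probe set 1453098_at also turned to 0.0024 with median scaling, 0.14 without the 5 arrays whose sex transcripts did not match their label, and 0.10 within arrays labelled female, and ran from -0.093 to 0.057 with each array left out. Grik5 minus Grik2 ran from -0.18 to 0.074 with each array left out, and Gria1 minus Gria4 turned to 0.39 with the other Gria1 probe set. With each array left out, 2480 to 2936 probe sets were higher and 2729 to 3126 lower, with 3 to 4 and 2 to 4 among the members and 15 to 17 and 5 to 7 among the related genes. In a fit of age alone without the 4 arrays whose sex transcripts opposed their label, 1973 were lower, with 4 related genes lower. In a fit of age alone without 5 arrays, which leaves 1 array of 1 week, assumed to vary like the others, 1975 were higher and 1747 lower, with 11 related genes higher. A 2-fold minimum left 450 higher and 393 lower, with 1 and 0 among the members and 3 and 1 among the related genes. Within arrays labelled female 1957 were higher and 2 related genes lower, and within arrays labelled male 1 member was lower. Without replicate 1 of either label at 1 week 5 related genes were lower. The cause of these shifts was not tested. With a replicate block 2847 were higher and 3054 lower, with 3 and 3 among the members, where Gria2 probe set 1421970_a_at was called (-0.26, adjusted p = 0.0355) and Grik2 and Gria1 probe set 1435239_at were not. Deviations of same-numbered arrays correlated at -0.03 to 0.19 over 13 pairs, above 0.1 in 5, so the numbers were not taken to pair the samples, although 8 of 10 arrays correlated best with an array of their own number, a hint from the data and not from the design. Other probe sets of dim genes are limited by signal over background, which the deposited values do not give.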
